A study of Mus musculus with 28 samples.

Results

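The nuclear genes of the mitochondrial respiratory chain were followed in mouse dorsal skin, in mutants with a conditional allele of the signalling adaptor Gab1 and K14-cre and in control mice. Probes were taken by gene symbol: Nduf genes (complex I), Sdh genes (complex II), Uqcr genes (complex III), Cox genes from Cox4 to Cox8 (complex IV) and Atp5 genes (complex V), leaving out Cox6a2 and Cox8b. The symbols matched 96 of the 25697 probes, and these name 77 genes. A gene was described where a probe was detected (detection p-value below 0.01 against negative control beads) on at least 6 of the 28 arrays. That held for 85 probes of 71 genes, out of 12834 probes and 9045 genes tested in all. The 71 genes comprised 33 of complex I, 3 of complex II, 6 of complex III, 14 of complex IV and 15 of complex V. No probe was detected on 6 arrays for Atp5k, Cox7b2, Cox8c, Ndufs1, Uqcrfs1 and Uqcrq. Ndufs5-ps is named as a pseudogene, and Ndufa4, counted here with complex I by its symbol, encodes a protein now placed with complex IV.

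Mutant mice carried the K14-cre transgene and a conditional Gab1 allele (Gab1fl). Recombination is thus directed to the basal layer of epidermis and hair follicle, and cells that descend from this layer inherit the change. The other cells of whole skin keep the gene. The labels give no genotype for the controls. All mice were on a mixed C57/BL6;129Ola background and were 10 days (P10) or 15 days (P15) old. The 4 slides held 6 P10 mutant, 10 P10 control, 6 P15 mutant and 6 P15 control arrays. Slides 1 and 2 carried the P10 mutants and 6 of the P10 controls, and slides 3 and 4 carried every P15 array and the remaining 4 P10 controls. Comparisons were therefore made within slides: the P10 comparison used slides 1 and 2, and the P15 and age comparisons used slides 3 and 4. On each slide the mutants took positions A to C and the age-matched controls D to F, so genotype and position cannot be told apart, and the P10 controls of slides 3 and 4 lay at G and H, so neither can age and position. Whether each replicate is a different animal is not stated, and the p-values thus reflect only how far these samples spread, which may be technical.

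The respiratory chain passes electrons from NADH (through complex I) and succinate (through complex II) to ubiquinone, on to cytochrome c by complex III and to oxygen by complex IV. Complexes I, III and IV pump protons across the inner mitochondrial membrane, and complex V, the ATP synthase, uses the gradient to make ATP. Most subunits are encoded in the nucleus, many of them under promoters bound by the factors NRF1, GABP (an ETS family factor) and YY1 and by oestrogen related receptors with the coactivator PGC-1α. In mice, keratinocytes that lack mitochondrial transcription through loss of Tfam form abnormal hair follicles.

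Because members of the chain are thought to share promoter elements, the windows from 250 bases before to 50 bases after the gene start were searched on both strands, using the RefSeq promoter table of build GRCm38.p6. It held 65 windows of 60 of the 71 genes. The NRF1 core GCGCATGCG was in 9.23% of these windows, against 3.4% of the windows of all genes tested and 1.75% of all windows in the table. Its looser form GCGCNTGCG, which also takes in every match of the first, was in 30.8% of member windows, against 12.5% and 6.31%. The YY1 core AAGATGGC was in 15.4%, against 4.27% and 2.75%. The ETS core CCGGAAG was in 23.1%, against 16.6% and 8.86%, and the core TCAAGGTCA of oestrogen related receptors was in 3.08%, against 0.255% and 0.423%. These shares describe the letters of the windows and were not tested. Of 10 matches to the YY1 core, 8 lay wholly after the gene start.

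Among the 60 genes with a window, 6 that passed the test in a comparison below had a motif wholly upstream of the start, and their 250 upstream bases are shown to set these elements beside the expression values. Letters run 5′ to 3′ on the coding strand and end at the base before the start. Capitals mark GCGCNTGCG or CCGGAAG, read on either strand. Atp5g2 rose in P15 mutants, and the other 5 were lower in P15 than in P10 control skin.
Atp5g2, chr15:102671048-102671297, minus strand: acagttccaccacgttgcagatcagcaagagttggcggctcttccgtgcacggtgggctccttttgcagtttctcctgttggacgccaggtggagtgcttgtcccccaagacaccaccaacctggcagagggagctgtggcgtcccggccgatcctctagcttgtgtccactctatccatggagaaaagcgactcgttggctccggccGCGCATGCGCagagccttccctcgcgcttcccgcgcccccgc
Atp5l, chr9:44920743-44920992, minus strand: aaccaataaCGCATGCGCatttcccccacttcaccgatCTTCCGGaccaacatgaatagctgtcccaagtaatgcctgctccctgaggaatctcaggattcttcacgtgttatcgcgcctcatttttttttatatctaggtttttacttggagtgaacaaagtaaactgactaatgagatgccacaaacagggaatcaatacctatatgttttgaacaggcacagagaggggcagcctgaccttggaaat
Ndufa5, chr6:24527691-24527940, minus strand: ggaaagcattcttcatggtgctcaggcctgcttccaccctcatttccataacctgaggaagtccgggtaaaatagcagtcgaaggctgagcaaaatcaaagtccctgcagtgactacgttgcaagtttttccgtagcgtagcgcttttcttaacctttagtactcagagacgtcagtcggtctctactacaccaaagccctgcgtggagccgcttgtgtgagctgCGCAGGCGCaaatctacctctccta
Ndufb6, chr4:40279422-40279671, minus strand: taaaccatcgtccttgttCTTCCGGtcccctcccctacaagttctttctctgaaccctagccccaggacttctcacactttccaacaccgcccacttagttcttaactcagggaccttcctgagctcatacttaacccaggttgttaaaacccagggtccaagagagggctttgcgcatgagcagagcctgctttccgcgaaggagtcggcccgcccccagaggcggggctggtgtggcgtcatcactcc
Ndufs3, chr2:90904722-90904971, minus strand: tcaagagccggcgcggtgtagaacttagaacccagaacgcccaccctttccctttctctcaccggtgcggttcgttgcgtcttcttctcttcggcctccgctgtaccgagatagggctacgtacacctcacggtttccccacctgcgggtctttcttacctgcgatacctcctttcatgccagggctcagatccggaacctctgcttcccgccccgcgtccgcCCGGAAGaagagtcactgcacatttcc
Uqcrh, chr4:116075071-116075320, minus strand: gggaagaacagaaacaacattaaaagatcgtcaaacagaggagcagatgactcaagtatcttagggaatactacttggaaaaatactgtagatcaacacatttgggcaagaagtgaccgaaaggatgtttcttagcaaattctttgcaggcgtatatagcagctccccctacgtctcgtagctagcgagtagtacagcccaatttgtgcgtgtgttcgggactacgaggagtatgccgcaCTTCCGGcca

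For AAGATGGC or GCGCNTGCG matches after the start, 30 bases are shown for the genes that passed a test, with the motif in capitals. Ndufc1, Atp5j2 and Ndufb8 carry the YY1 core, and Atp5o carries a GCGCNTGCG match. Atp5l and Ndufs3 also hold a CCGGAAG match after the start, which is not shown.
Ndufc1, chr3:51408915-51408944, minus strand: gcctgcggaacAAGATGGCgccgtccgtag
Atp5j2, chr5:145191500-145191529, minus strand: accaggacttcAAGATGGCgtcactcggtg
Ndufb8, chr19:44555393-44555422, minus strand: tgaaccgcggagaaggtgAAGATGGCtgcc
Atp5o, chr16:91931601-91931630, minus strand: ctggcgcgcGCGCGTGCGctctggcgccag
Members with the same motif did not all go the same way. Of the genes with GCGCNTGCG, Atp5o was lower and Atp5g2 higher in P15 mutants. Of the 7 genes with a window that passed at P10, 0 had CCGGAAG, 1 had GCGCNTGCG and 1 had AAGATGGC. For the 4 that passed at P15 these counts were 0, 2 and 1, and for the 9 that passed with age 4, 2 and 2. Among all member windows the shares were 23.1%, 30.8% and 15.4% in the same order. The counts are small and were not tested.

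Gab1 itself was lower in both sets of mutants. Its log2 signal averaged 9.99 ± 0.12 in P10 mutants and 11.30 ± 0.24 in P10 controls of the same slides (SD, n = 6 each), a 2.47-fold difference, and 10.28 ± 0.23 in P15 mutants against 11.60 ± 0.20 in P15 controls, a 2.51-fold difference. All 6 keratinocyte markers of the basal layer and 5 of 6 of the suprabasal layer were among the genes tested. From 8836 to 13610 probes were detected per array, and the median raw signal lay between 53.2 and 172. It was 105 to 133 on P10 mutants and 83.3 to 113 on P10 controls of slides 1 and 2. On P10 controls of slides 3 and 4 it was 70.0 to 82.1 and on P15 controls 56.7 to 68.0, without overlap. P15 mutants ran from 53.2 to 172. P15 mutant 5 had both the fewest detected probes and the highest raw median. Skeletal muscle RNA varied widely between arrays: on P10 control 7 the mean centred level of 20 muscle markers was 2.27, against -0.37 to 0.57 on the other 9 P10 controls.

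At P10 a minority of respiratory chain genes differed between mutant and control skin, and the chain did not move as a block. The genes of the ATP synthase α subunit (Atp5a1), the muscle isoform Cox7a1 and the small complex IV subunits Cox6c, Cox7b and Cox7a2 were higher in mutants, with the complex I genes Ndufb5 and Ndufs5-ps. The ATP synthase stator gene Atp5o and the genes Ndufc1 and Ndufa4 were lower. Of 71 genes 7 rose and 3 fell (limma adjusted p below 0.05). These 10 make up 14.1% of the members, against 18.9% of all genes tested. The rising genes were 9.86% of members against 9.49% of all genes, and the falling ones 4.23% against 9.36%. The median log2 difference, mutant minus control, was 0.03 for the 71 genes and -0.01 for all genes, and 63 of the 71 lay within 0.5 of 0. Under median scaling, in which each array is divided by its median, the medians were -0.16 and -0.02, so the sign of the members' median rests on the scaling. There 9 members rose and 4 fell, 18.3% of members against 18.7% of all genes. At an unadjusted p below 0.05, 16 members differed, 22.5% of them against 32.1% of all genes.

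Complex V showed the largest differences in either direction. Atp5o encodes OSCP, the stalk subunit that holds the catalytic head of the ATP synthase to its membrane part. Its log2 signal was 7.64 at lowest, 7.74 in the median and 8.00 at highest in P10 mutants, against 8.46, 8.67 and 8.82 in P10 controls of slides 1 and 2. Every mutant lay below every control, as was so or the reverse for 3 members (Atp5o, Cox4i2 and Cox6c), 4.23% of members against 9.32% of all genes. The log2 difference was -0.85 (SE 0.14, limma adjusted p = 0.000172), -0.92 on slide 1 and -0.79 on slide 2. This call held whichever single array was left out.

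Atp5a1, the α subunit of the catalytic head, differed the other way but mainly on slide 1. On slide 1 its log2 signal averaged 11.06 in 3 P10 mutants, against 8.94, 8.49 and 8.83 in P10 controls, without overlap. On slide 2 it was 10.44, 10.18 and 10.83 in P10 mutants, against 11.15, 10.00 and 9.60 in P10 controls, and there the groups overlapped. The fitted log2 difference of 1.27 (SE 0.31, limma adjusted p = 0.00491) thus averaged 2.31 on slide 1 and 0.24 on slide 2. On slide 2 alone the call ended (adjusted p = 0.733). The other 13 complex V genes did not pass, among them Atp5b, the β subunit, whose log2 difference was 0.12 and which had the smallest residual SD of any member, 0.095 on the log2 scale.

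Complex IV held 4 of the 7 rises, which is 28.6% of its 14 genes, against 9.49% of all genes. Cox6c, a small membrane subunit, had log2 signals of 12.27, 12.40 and 12.66 (lowest, median, highest) in P10 mutants, against 11.88, 12.04 and 12.20 in P10 controls, with no overlap. Its log2 difference was 0.38 (SE 0.11, limma adjusted p = 0.0143), and 0.39 and 0.38 on slides 1 and 2. Under median scaling it was 0.15 (adjusted p = 0.517). Cox7b, another small membrane subunit, ranged from 6.54 to 7.02 in P10 mutants and from 5.80 to 6.79 in P10 controls. Its difference was 0.50 (SE 0.16, limma adjusted p = 0.0304), 0.67 on slide 1 and 0.33 on slide 2. Its call ended when any 1 of 7 arrays was left out (P10 mutants 1, 2 and 4 and P10 controls 5, 6, 9 and 10, adjusted p from 0.0527 to 0.0977).

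Both isoforms of subunit VIIa rose in the fit and both were higher in the mutants of slide 1, but on slide 2 mainly Cox7a1 was. Cox7a1, the form of heart and skeletal muscle, had log2 signals of 9.47, 9.55 and 9.17 in P10 mutants and 7.78, 7.73 and 9.43 in P10 controls of slide 1, where the third control is P10 control 7. On slide 2 it had 9.09, 8.44 and 9.21 in P10 mutants and 8.04, 7.90 and 8.16 in P10 controls, without overlap. Its log2 difference was 0.98 (SE 0.26, limma adjusted p = 0.00903). Cox7a2, the form found in most tissues, averaged 9.05 in P10 mutants and 8.02 in P10 controls on slide 1, and 9.17 in P10 mutants and 9.06 in P10 controls on slide 2. Its difference of 0.57 (SE 0.19, limma adjusted p = 0.0395) was 1.03 on slide 1 and 0.10 on slide 2, and the call ended on slide 2 alone (adjusted p = 0.829) and when any 1 of 8 arrays was left out (P10 mutants 1, 2, 3 and 6 and P10 controls 5, 6, 7 and 10, adjusted p from 0.0534 to 0.114).

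Muscle markers moved with Cox7a1. Of the 20 muscle markers 9 were higher and 0 lower in P10 mutants, and all 20 were detected on at least 1 array of both groups. Their mean centred level was 1.26 to 2.09 in P10 mutants and -0.31 to 2.27 in P10 controls of slides 1 and 2, with the highest value on P10 control 7. Cox6a2 and Cox8b, muscle forms of complex IV that the symbol rule leaves out, differed by 1.92 (SE 0.63, limma adjusted p = 0.0318) and 1.85 (SE 0.44, limma adjusted p = 0.00473). With the muscle level as a covariate the Cox7a1 difference was 0.33 (adjusted p = 0.223) and that of Ndufa4 was -0.35 (adjusted p = 0.102), while Cox6c, Cox7b, Cox7a2, Ndufb5, Ndufs5-ps, Ndufc1, Atp5a1 and Atp5o stayed past the threshold. In bulk tissue, fewer cells of a type and less RNA per cell cannot be told apart. Cox6b2, the testis form of subunit VIb, did not pass (difference 0.23, SE 0.15, limma adjusted p = 0.297).

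In complex I, 2 genes rose and 2 fell, 6.06% of its 33 genes each way, against 9.49% and 9.36% of all genes. Ndufc1, a membrane arm subunit, had log2 signals of 11.42, 11.61 and 11.98 (lowest, median, highest) in P10 mutants and 11.94, 12.25 and 12.44 in P10 controls. The groups met only at their edges, and the difference was -0.55 (SE 0.17, limma adjusted p = 0.0275), -0.80 on slide 1 and -0.30 on slide 2. The call ended when any 1 of 6 arrays was left out (P10 mutants 1, 2, 3 and 6 and P10 controls 6 and 7, adjusted p from 0.055 to 0.0812). Ndufa4 averaged 12.45 ± 0.32 in P10 mutants and 12.90 ± 0.13 in P10 controls (SD, n = 6 each), a difference of -0.44 (SE 0.12, limma adjusted p = 0.0142) that was -0.73 on slide 1 and -0.16 on slide 2. Without P10 mutant 2 the adjusted p was 0.0534.

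Ndufb5, a membrane arm subunit, had 9.10, 8.99 and 8.96 in P10 mutants and 8.01, 7.98 and 8.09 in P10 controls on slide 1. On slide 2 it had 9.17, 8.79 and 8.92 in P10 mutants and 9.13, 8.71 and 8.51 in P10 controls, which overlapped. The difference of 0.58 (SE 0.17, limma adjusted p = 0.0185) was 0.99 on slide 1 and 0.18 on slide 2, and it was lost without P10 mutant 1 or P10 control 6 (adjusted p 0.0564 and 0.0572). Ndufs5-ps averaged 11.17 ± 0.23 in P10 mutants and 10.70 ± 0.27 in P10 controls (SD, n = 6 each), a difference of 0.47 (SE 0.13, limma adjusted p = 0.0112), 0.70 on slide 1 and 0.25 on slide 2. Whether its probe also reads the parent gene was not tested, since probe sequences were not used here.

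Adipocyte, fibroblast and immune markers also moved at P10. Of 9 adipocyte markers tested 7 rose and 0 fell, of 7 dermal fibroblast markers 7 rose, of 4 mast cell markers 4 rose and of 3 macrophage markers 3 rose. Of 6 basal and 5 suprabasal keratinocyte markers 0 passed, of 8 hair shaft and matrix markers 2 rose, and of 4 sebaceous gland markers 1 fell. The mean centred adipocyte level was 0.55 to 1.32 in P10 mutants and -0.23 to 0.60 in P10 controls of slides 1 and 2, and the fibroblast level was 0.94 to 1.41 in P10 mutants and 0.05 to 0.38 in P10 controls. Retn was detected on no array of either group, and Fabp4 on none of these controls. Ucp1 and Dio2, which mark brown adipocytes, were detected on no array of either group. With the adipocyte level as a covariate 2 members rose and 2 fell, 5.63% of members against 7.71% of all genes, and Atp5a1, Atp5o and Ndufc1 stayed past the threshold. The differences of Cox6c, Cox7a2, Cox7b, Ndufb5, Ndufs5-ps and Ndufa4 no longer passed there, at 0.49, 0.81, 0.66, 0.72, 0.51 and -0.56 (adjusted p from 0.0538 to 0.0968), although each was larger than without the covariate. That of Cox7a1 was 0.43 (adjusted p = 0.49). The part of these cell types in the differences was not tested further.

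The genes of complexes II and III did not pass at P10. In complex II, Sdhd, a membrane anchor, differed by 0.47 (SE 0.17, limma adjusted p = 0.0579, 95% confidence interval from 0.11 to 0.83), with log2 signals averaging 7.14 ± 0.19 in P10 mutants and 6.67 ± 0.28 in P10 controls (SD, n = 6 each). This value sat at the threshold: the adjusted p was below 0.05 under 13 of the alternatives tried, among them the omission of single P15 arrays. The iron-sulphur subunit gene Sdhb differed by 0.24 (interval from -0.03 to 0.51) and the other anchor gene, Sdhc, by 0.03 (interval from -0.17 to 0.24). The 6 complex III genes lay between -0.15 and 0.16, and Uqcrh, the hinge protein, had the smallest p (difference -0.12, interval from -0.32 to 0.08).

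**Figure D1:**
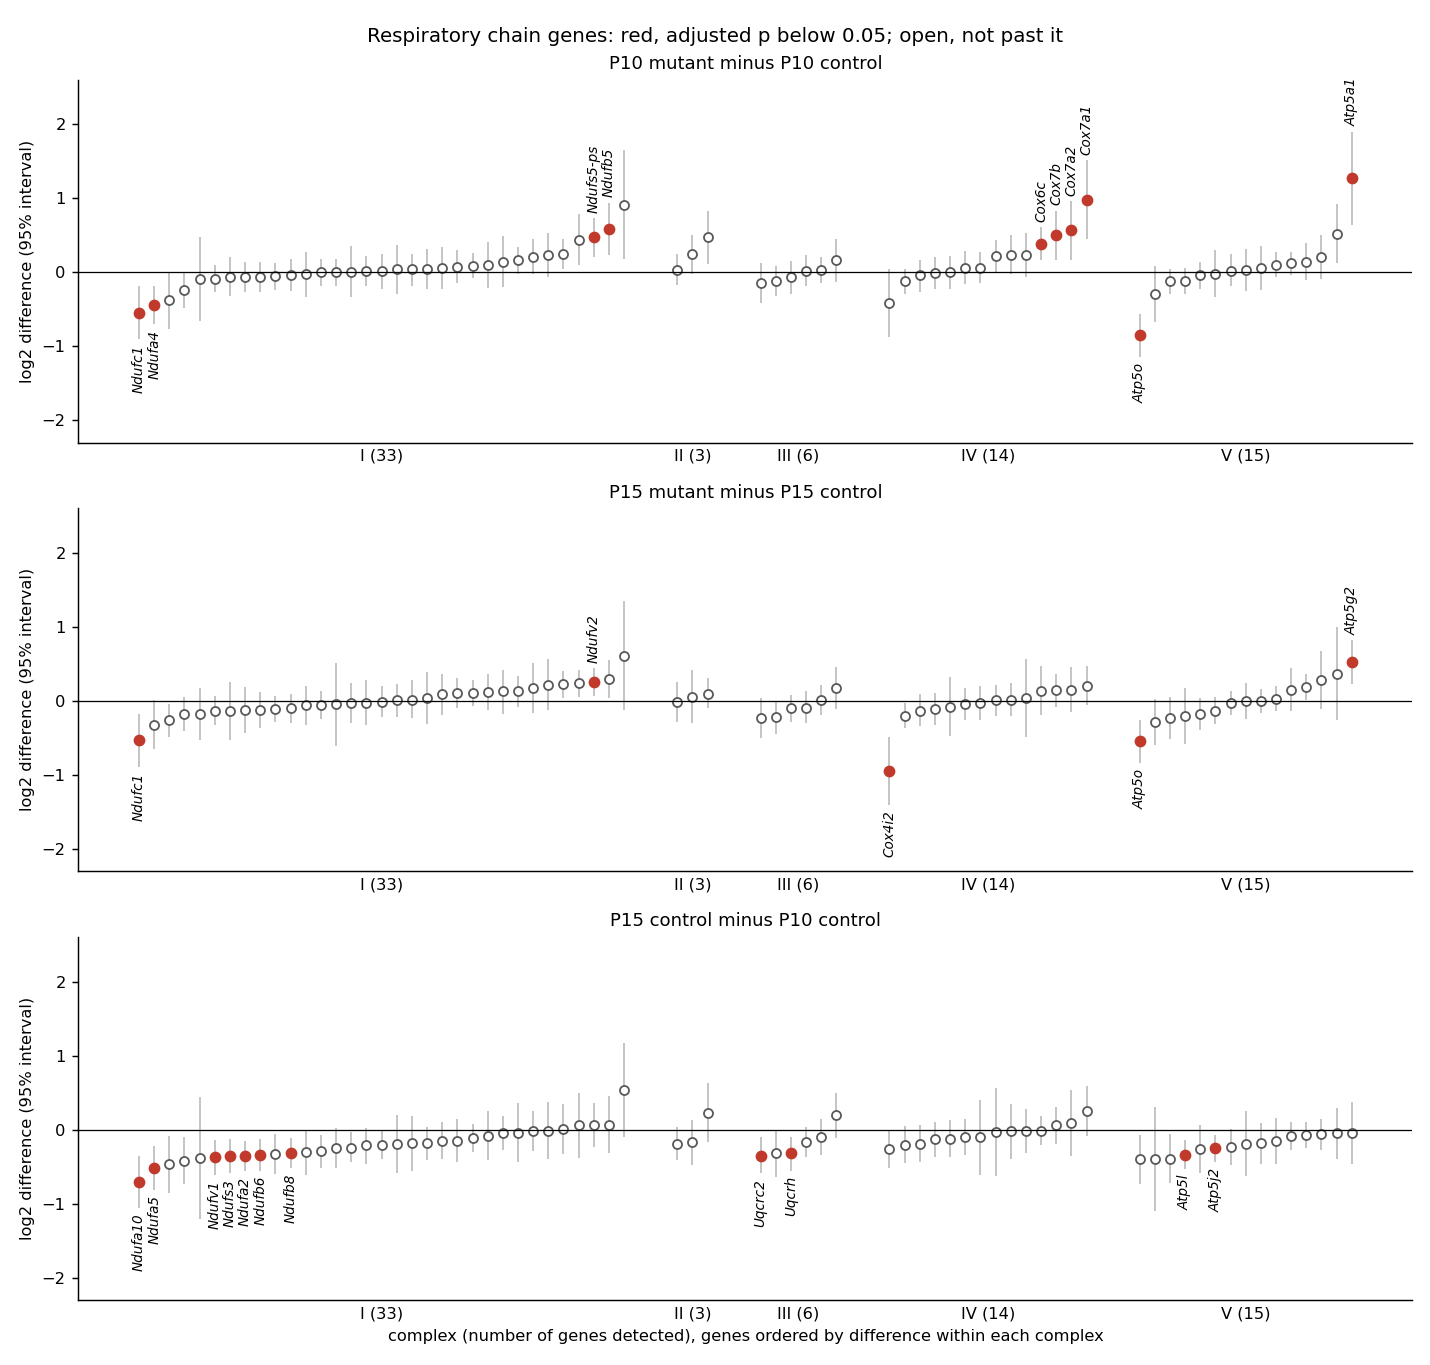
Log2 difference of each of the 71 genes with its 95% confidence interval, ordered by size within complexes I to V, for P10 mutant minus P10 control, P15 mutant minus P15 control and P15 control minus P10 control. Red points passed an adjusted p of 0.05 (10, 5 and 11 genes), and in the lowest panel 61 of 71 points lie below 0.

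**Figure D2:**
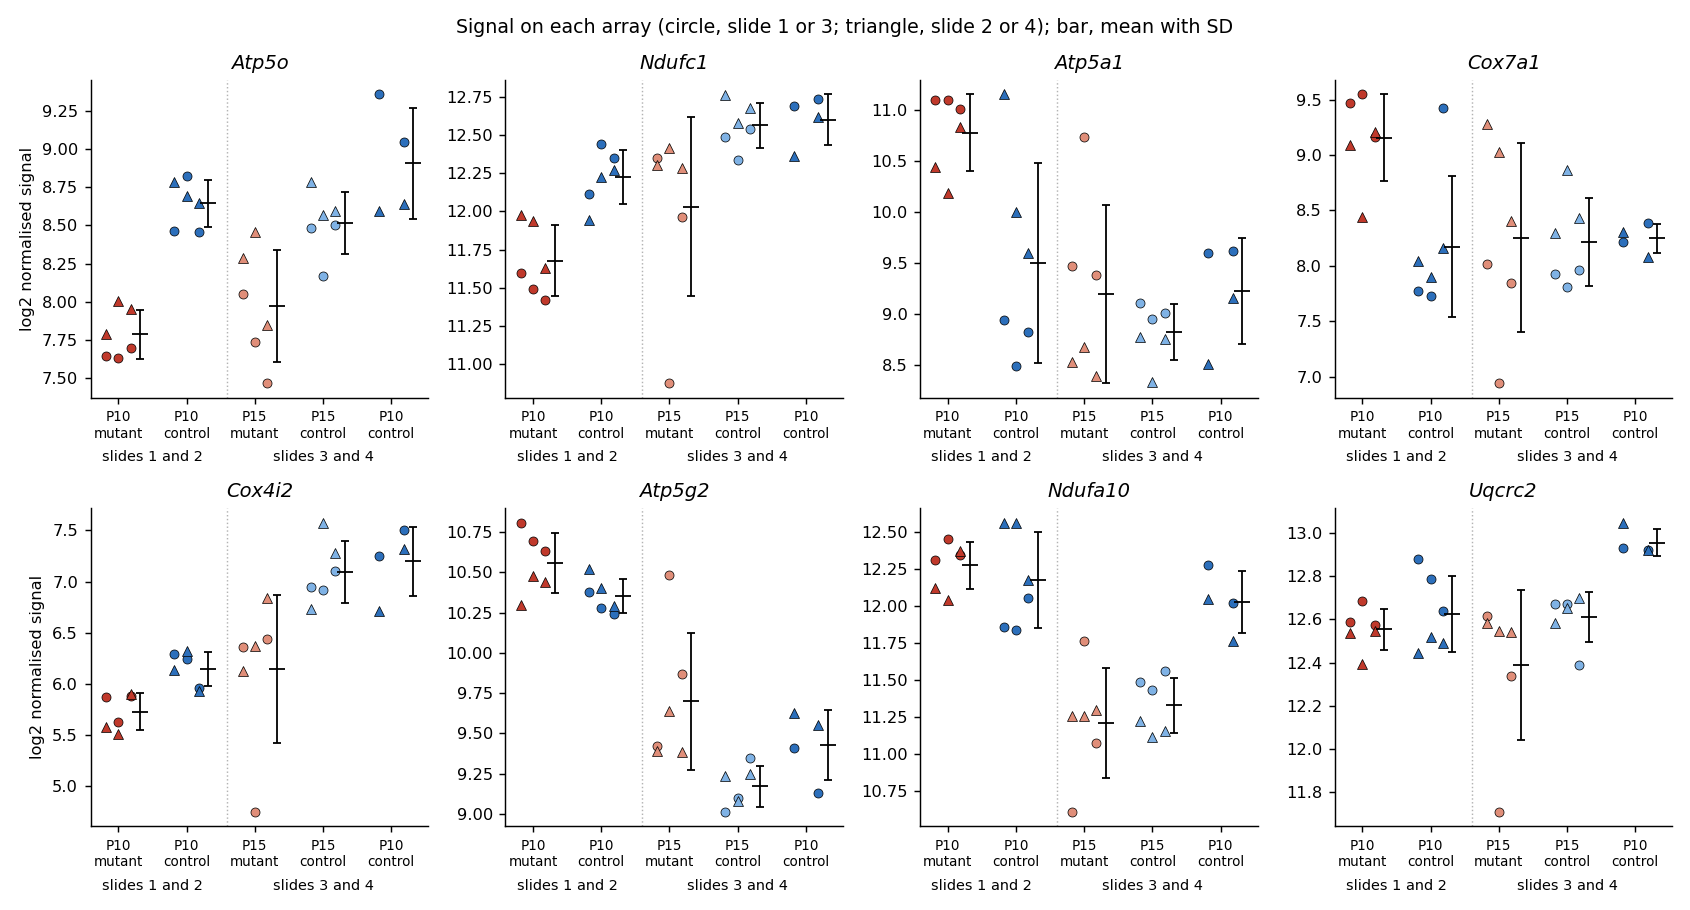
Log2 normalised signal of 8 genes on each array, with circles for slides 1 and 3, triangles for slides 2 and 4 and the mean ± SD of each group beside the points. Atp5o in P10 mutants lies wholly below P10 controls, Atp5a1 in the P10 controls of slides 1 and 2 is lower on slide 1, and P15 mutant 5 (a circle) is the lowest P15 mutant for Ndufc1, Cox7a1, Cox4i2 and Uqcrc2.

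At P15 fewer members differed. Cox4i2, Atp5o and Ndufc1 were lower in mutants, and Atp5g2 and Ndufv2 were higher. Of 71 genes 2 rose and 3 fell, which is 7.04% of members against 20.0% of all genes tested. The rises were 2.82% of members against 9.68% of all genes, and the falls 4.23% against 10.3%. The median log2 difference was -0.01 for members and 0.02 for all genes, and 66 of 71 members lay within 0.5 of 0. Under median scaling 1 rose and 2 fell, 4.23% of members against 14.1% of all genes.

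Cox4i2, the form of subunit IV that is abundant in lung and induced by low oxygen in mammalian cells, had the largest P15 difference. Its log2 signal was 4.75 at lowest, 6.36 in the median and 6.84 at highest in P15 mutants, against 6.73, 7.03 and 7.58 in P15 controls. The lowest value belonged to P15 mutant 5, on which the probe was not detected, and the groups overlapped by 1 mutant. The log2 difference was -0.94 (SE 0.22, limma adjusted p = 0.00312), -1.14 on slide 3 and -0.75 on slide 4, and the call held whichever single array was left out. At P10 the same gene ranged from 5.51 to 5.90 in mutants and from 5.93 to 6.32 in controls of slides 1 and 2. Those groups did not overlap, and 4 of 6 P10 mutants and 6 of 6 P10 controls had the probe detected. The P10 difference of -0.42 (SE 0.22, limma adjusted p = 0.193) did not pass in the fit that shares its spread over all 28 arrays, but did when the P10 arrays were fitted alone (adjusted p = 0.00869). Its common counterpart Cox4i1 differed by 0.23 at P10 and 0.20 at P15 and passed at neither age.

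Atp5o was lower again at P15. Its log2 signal was 7.47, 7.95 and 8.46 (lowest, median, highest) in P15 mutants, against 8.17, 8.54 and 8.79 in P15 controls. The difference was -0.54 (SE 0.14, limma adjusted p = 0.00848), -0.63 on slide 3 and -0.45 on slide 4, and 6 of 6 mutants lay below the control mean of their slide. The call held whichever single array was left out and ended under median scaling (difference -0.38, adjusted p = 0.136). Ndufc1 ranged from 10.87 to 12.41 in P15 mutants and from 12.34 to 12.76 in P15 controls. Its difference was -0.53 (SE 0.17, limma adjusted p = 0.0301), but without P15 mutant 5, at 10.87, or without P15 control 1, 4 or 6, the adjusted p was 0.0524 to 0.0588. Only Atp5o and Ndufc1 passed at both ages, and both were lower each time.

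Atp5g2 encodes the c subunit of the membrane ring of complex V. Its log2 signal was 9.38, 9.53 and 10.48 (lowest, median, highest) in P15 mutants, against 9.01, 9.17 and 9.35 in P15 controls, and the groups did not overlap. It was the only member of which that was true at P15, 1.41% of members against 6.83% of all genes. The difference was 0.53 (SE 0.14, limma adjusted p = 0.00985), 0.77 on slide 3 and 0.28 on slide 4. The highest value, 10.48, was that of P15 mutant 5. The call held whichever single array was left out but ended under 5 of 42 alternatives. These were no slide term (adjusted p = 0.0904), slide 3 or 4 alone (0.159 and 0.236), only the arrays of the comparison (0.0618) and the adipocyte covariate (0.141). The other c subunit genes, Atp5g1 and Atp5g3, differed by 0.15 and 0.03 and did not pass. Ndufv2, a subunit of the NADH-binding module, averaged 12.12 ± 0.23 in P15 mutants and 11.86 ± 0.12 in P15 controls (SD, n = 6 each). Its difference of 0.26 (SE 0.09, limma adjusted p = 0.0429) was lost under 18 of 42 alternatives. One of them leaves out P15 mutant 5, which had the highest value (12.56).

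The remaining complexes gave no P15 call. In complex II, Sdhb, Sdhc and Sdhd differed by -0.01, 0.10 and 0.06 (intervals from -0.28 to 0.26, from -0.10 to 0.31 and from -0.30 to 0.42), and Sdhd was detected on 3 of 6 arrays in each group. In complex III the smallest p was that of Uqcrc2, a core protein, with a difference of -0.22 (limma adjusted p = 0.154). Cox7a1 differed by 0.04 (SE 0.26, limma adjusted p = 0.943), -0.30 on slide 3 and 0.37 on slide 4, while Cox8b, left out by the rule, differed by 1.74 (SE 0.44, limma adjusted p = 0.00641) with the probe detected on 5 of 6 P15 mutants and 1 of 6 P15 controls. Cox6b2 differed by 0.15 (limma adjusted p = 0.496). Ndufb11 was detected on no array of slides 3 and 4, so it has no measured level at P15. Its P15 and age differences are between background values, although it stays in the counts of 33 and 71 genes and in the complex I level. Of marker lists, 6 of 6 proliferating cell genes rose at P15, 2 of 9 adipocyte and 2 of 4 sebaceous gland markers fell, 2 of 3 macrophage and 2 of 4 mast cell markers rose, and 0 of 20 muscle markers passed. Of basal keratinocyte, suprabasal keratinocyte and hair shaft and matrix markers 1 of 6, 1 of 5 and 2 of 8 fell, and 0 rose. The mean centred sebaceous level was -0.59 to -0.24 in P15 mutants and -0.02 to 0.57 in P15 controls, without overlap. The macrophage level averaged 0.19 in P15 mutants and -0.76 in P15 controls, and the mast cell level -0.45 in P15 mutants and -1.03 in P15 controls. With the adipocyte level as a covariate 4.23% of members passed at P15, against 12.4% of all genes. Atp5g2 and Ndufc1 no longer passed there (differences 0.37 and -0.38, limma adjusted p = 0.141 and 0.232). With the muscle level as a covariate Ndufv2 no longer passed (0.26, limma adjusted p = 0.0564). The part of the listed cell types in the members' differences was not tested beyond the covariate fits. The muscle level ranged from -2.49 to 1.45 in P15 mutants and from -2.41 to 0.38 in P15 controls, and Tnni1 was detected on no array of either group.

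No member passed the test of the difference between the P15 and the P10 mutant effect: 0 of 71 with limma, against 3.9% of all genes (1.93% higher and 1.97% lower). At an unadjusted p below 0.05 there were 10, or 14.1% against 17.8% of all genes. With arrays weighted by quality 2 passed with a positive and 8 with a negative difference, again 14.1% of members, against 16.4% of all genes. The smallest p-values belonged to Ndufs5-ps (P15 effect minus P10 effect -0.53, SE 0.18, limma adjusted p = 0.101) and Cox6c (-0.43, SE 0.15, limma adjusted p = 0.127). In complex V it was Atp5l (0.31, limma adjusted p = 0.169), and in complexes II and III Sdhd (-0.41, limma adjusted p = 0.397) and Uqcr10 (-0.13, limma adjusted p = 0.628). For Cox7a1 the difference was -0.94 (interval from -1.69 to -0.19, limma adjusted p = 0.161). Without P10 control 7, the control with the high muscle level, it was -1.18 (adjusted p = 0.036).

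Between P10 and P15 control skin the members lay mostly on the lower side. Of 71 genes 11 were lower at P15 and 0 higher, so that 15.5% of members fell against 10.6% of all genes, and 0% rose against 11.6%. In either direction 22.2% of all genes passed. The difference, P15 control minus P10 control, was negative for 61 of 71 members, or 85.9% against 48.8% of all genes. The median was -0.18 for members and 0.01 for all genes. All sizes were modest: no member differed by 1 or more on the log2 scale. This comparison rests on 6 P15 controls and 4 P10 controls. The median was -0.27 on slide 3 alone and -0.06 on slide 4 alone, and 0 and 2 members were lower in those fits. Of all genes 1.34% and 4.21% were lower there.

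The counts depended on scaling and on single P10 controls. Under median scaling 30 members were lower, 42.3% of them against 22.6% of all genes. Their median there was -0.41, while the median of all genes was -0.23, so the members lay 0.18 below the rest. With the main scaling they lay 0.19 below. The median raw signal was lower on every P15 control than on the P10 controls of slides 3 and 4, and its part in these counts was not tested. Without P10 control 3 the count of lower members was 4, and without P10 control 4 it was 6. With the muscle level as a covariate 6 members were lower and 1, Cox7a1, was higher (difference 0.59, adjusted p = 0.0386, against -0.03 without the covariate). In that fit 7.96% of all genes were lower and 9.32% higher. Of 20 muscle markers 7 fell and 0 rose with age, and their level was -2.41 to 0.38 in P15 controls and -0.37 to 0.23 in P10 controls of slides 3 and 4. Of P15 control arrays 0 had Casq1 or Tnni1 detected. Adipocyte, fibroblast, mast, proliferating and red cell markers fell too (5 of 9, 4 of 7, 4 of 4, 5 of 6 and 2 of 2). Keratinocyte markers lay on the other side: 1 of 6 basal and 2 of 5 suprabasal ones rose and 0 fell, with median differences of 0.31 and 0.46. Of 8 hair shaft and matrix markers 2 rose and 1 fell, and of 4 sebaceous gland markers 1 rose. The red cell level was -0.91 to -0.62 in P15 controls and 0.19 to 0.60 in P10 controls of slides 3 and 4, without overlap. The part of these cell types in the members' shift was not tested beyond the covariate fits.

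Complex I, with 33 of the 71 genes, accounted for 7 of the 11 falls. That is 21.2% of its genes, against 15.5% of all members and 10.6% of all genes. Ndufa10, a membrane arm subunit, had log2 signals of 11.11, 11.33 and 11.56 (lowest, median, highest) in P15 controls, against 11.77, 12.04 and 12.28 in P10 controls of slides 3 and 4. Its groups did not overlap, and the difference of -0.70 (SE 0.17, limma adjusted p = 0.00402) was -0.66 on slide 3 and -0.74 on slide 4. It held whichever single array was left out. Ndufa5, of the peripheral arm, averaged 10.37 ± 0.22 in P15 controls (SD, n = 6) and 10.88 ± 0.34 in P10 controls (SD, n = 4), a difference of -0.52 (SE 0.14, limma adjusted p = 0.0107). Without P10 control 1 its adjusted p was 0.0682.

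Subunits of the NADH-binding and ubiquinone-binding modules were among the falls. Ndufv1, which binds NADH, averaged 11.97 ± 0.12 in P15 controls and 12.34 ± 0.12 in P10 controls, and its difference was -0.37 (SE 0.12, limma adjusted p = 0.0213). Ndufs3, a core subunit near the ubiquinone site, averaged 10.17 ± 0.16 in P15 controls and 10.53 ± 0.21 in P10 controls, a difference of -0.36 (SE 0.11, limma adjusted p = 0.0203). The Ndufv1 call ended without P15 control 3 or P10 control 2, 3 or 4 (adjusted p from 0.0524 to 0.0703), and that of Ndufs3 without P10 control 3 (adjusted p = 0.122). Ndufa2, of the peripheral arm, and Ndufb6 and Ndufb8, of the membrane arm, fell by 0.35, 0.34 and 0.32 on the log2 scale. For Ndufa2 the difference was -0.50 on slide 3 and -0.20 on slide 4, and its call ended without P10 control 4 (adjusted p = 0.0506). For Ndufb6 it was -0.50 and -0.17, and its call ended without P10 control 3 or 4 (adjusted p 0.0542 and 0.0857). Ndufb8 gave -0.36 and -0.27 and its groups did not overlap, and its call ended without P10 control 2 or 3 (adjusted p 0.0672 and 0.0877).

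In complexes III and V the falls were as small as 1.19-fold. Uqcrc2 had log2 signals from 12.39 to 12.70 in P15 controls and of 12.92 to 13.05 in P10 controls, without overlap, and the difference was -0.35 (SE 0.12, limma adjusted p = 0.0416). The hinge protein gene Uqcrh averaged 12.76 ± 0.10 in P15 controls (SD, n = 6) and 13.09 ± 0.08 in P10 controls (SD, n = 4), a difference of -0.32 (SE 0.11, limma adjusted p = 0.0363). Each of these 2 calls ended when any 1 of 7 arrays was left out (Uqcrc2 without P15 control 1, 2, 3 or 6 or P10 control 1, 3 or 4; Uqcrh without P15 control 3, 4, 5 or 6 or P10 control 1, 2 or 3). In complex V, Atp5l, subunit g of the membrane part, differed by -0.34 (SE 0.10, limma adjusted p = 0.0134), and Atp5j2, subunit f, by -0.25 (SE 0.09, limma adjusted p = 0.0466). The Atp5l call ended without P10 control 2 (adjusted p = 0.0536) and that of Atp5j2 under 28 of 42 alternatives. All 15 complex V genes had a negative difference, from -0.40 to -0.04.

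Complexes II and IV gave no call with age. Sdhb, Sdhc and Sdhd differed by -0.17, -0.19 and 0.23, with intervals from -0.47 to 0.13, from -0.41 to 0.04 and from -0.17 to 0.63. In complex IV, 11 of 14 differences were negative, the median was -0.07, and the smallest p was that of Cox6a1, the common form of subunit VIa (difference -0.26, limma adjusted p = 0.132). Cox4i2 and Cox6b2 differed by -0.10 (limma adjusted p = 0.806) and 0.26 (limma adjusted p = 0.279). The groups of slides 3 and 4 did not overlap for 15 members, 21.1% of them against 16% of all genes. The left-out muscle forms Cox6a2 and Cox8b differed by -2.36 (SE 0.70, limma adjusted p = 0.0164) and -1.72 (SE 0.50, limma adjusted p = 0.014). Their probes were detected on 2 of 6 and 1 of 6 P15 controls and on 4 of 4 P10 controls, so these differences are set against a level mostly at background. Cox6a2 was 8.86 on P15 control 2 and 4.66 to 6.38 on the other P15 controls.

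**Figure D3:**
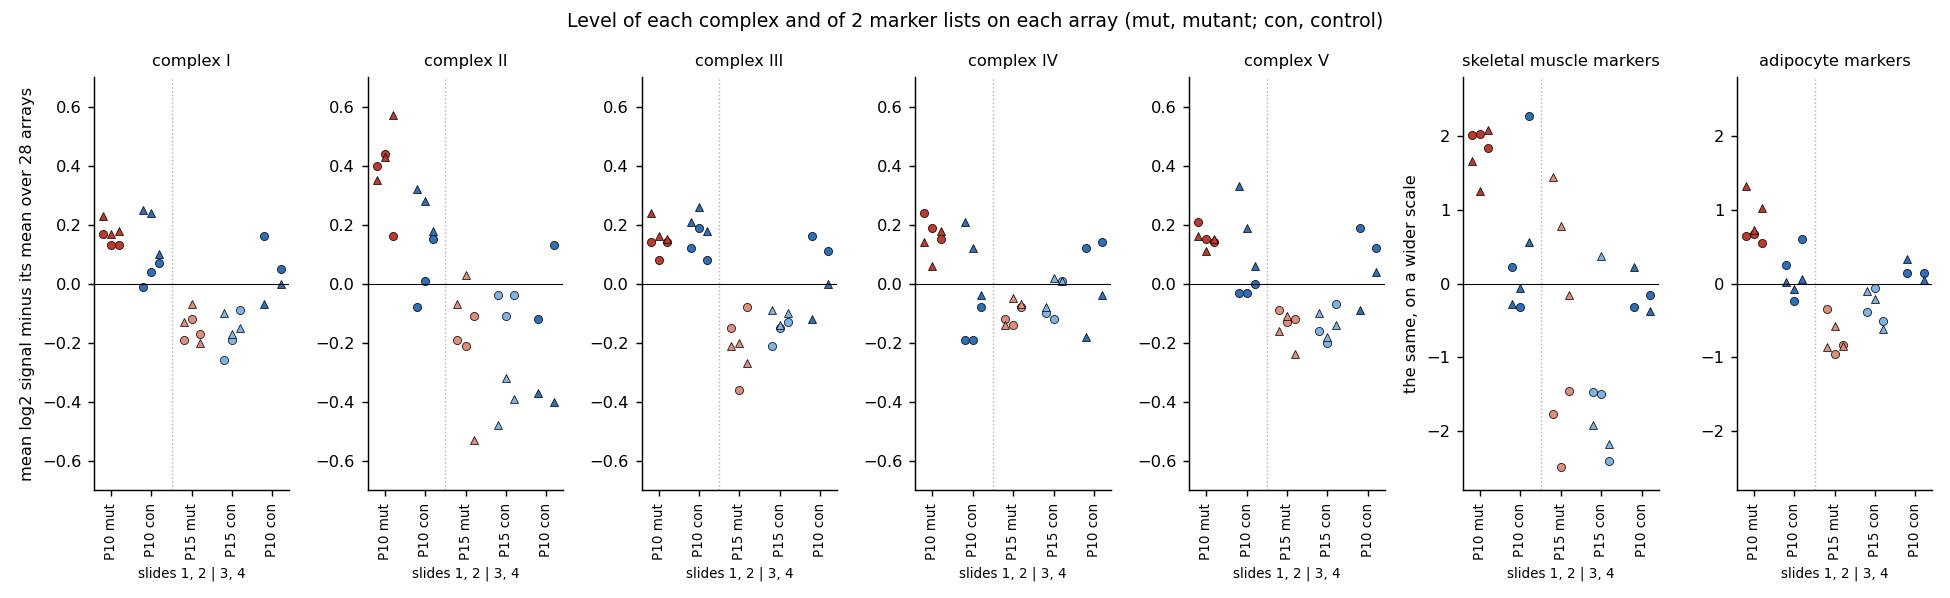
Mean log2 signal of the members of each complex, and of skeletal muscle and adipocyte markers, each gene centred on its mean over 28 arrays, for every array (circles, slides 1 and 3; triangles, slides 2 and 4). The marker lists have a wider axis than the complexes. The complex I, III and V levels lie below 0 on all 12 P15 arrays. On the 4 P10 controls of the same slides they run from -0.07 to 0.16, -0.12 to 0.16 and -0.09 to 0.19. The muscle level is 1.26 to 2.09 on P10 mutants and 2.27 on 1 P10 control, and it reaches 1.45 among P15 mutants.

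The level of a whole complex, taken as the mean over its members after centring each gene on its 28-array mean, moved little. For complex I it was 0.13, 0.17 and 0.23 (lowest, median, highest) in P10 mutants and -0.01, 0.08 and 0.25 in P10 controls of slides 1 and 2, and the groups overlapped. It was -0.20 to -0.07 in P15 mutants and -0.26 to -0.09 in P15 controls, again overlapping. For complex V it was 0.11 to 0.21 in P10 mutants and -0.03 to 0.33 in P10 controls, and -0.24 to -0.09 in P15 mutants against -0.20 to -0.07 in P15 controls. Complex III lay at 0.08 to 0.24 in P10 mutants and 0.08 to 0.26 in P10 controls, and at -0.36 to -0.08 in P15 mutants and -0.21 to -0.09 in P15 controls. The P10 controls of slides 3 and 4 gave -0.07 to 0.16 for complex I, -0.12 to 0.16 for III and -0.09 to 0.19 for V. For complexes III and V these ranges overlapped those of P15 controls, and for complex I they did not. The complex I level includes Ndufb11, which was detected on no array of slides 3 and 4.

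Complex II varied most. Its 3 genes had a level of 0.16 to 0.57 in P10 mutants, against -0.08 to 0.32 in P10 controls of slides 1 and 2. The mean of 0.39 in P10 mutants rested in part on Sdhd, detected on 21 arrays: over the 2 genes detected on all 28 arrays it was 0.20. The P10 controls of slides 3 and 4 gave -0.40 to 0.13, and P15 mutants and P15 controls gave -0.53 to 0.03 and -0.48 to -0.04. Complex IV was at 0.06 to 0.24 in P10 mutants and -0.19 to 0.21 in P10 controls, and at -0.14 to -0.05 in P15 mutants and -0.12 to 0.02 in P15 controls. For complex IV the P10 controls of slides 3 and 4 gave -0.18 to 0.14. Across all 28 arrays the level of the 71 genes together spanned -0.20 to 0.26, while the muscle marker level spanned -2.49 to 2.27. A level over members was not tested, since members are not replicates.

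Members also differed in how steady they were between arrays. The residual SD, after group and slide means, had a median of 0.203 over the 71 genes and 0.255 over all genes tested. It ran from 0.095 for Atp5b to 0.676 for Ndufb4, a membrane arm subunit of complex I. Ndufb4 had a larger residual SD than 98.9% of all genes. It was detected on 4 of 6 P10 controls of slides 1 and 2, 2 of 6 P15 mutants and 1 of 6 P15 controls. Its differences of 0.91 at P10 (limma adjusted p = 0.0744) and 0.61 at P15 (limma adjusted p = 0.242) did not pass. P15 mutant 5 read 8.84 and the other P15 mutants 5.33 to 6.28, and without that array the P15 difference was 0.16 (adjusted p = 0.713) and the P10 difference of 0.91 passed (adjusted p = 0.00578), in a fit that shares its spread over all arrays.

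Some genes were read by several probes, and these did not always give the same answer. Of 71 genes 11 had more than 1 detected probe, and the brightest stood for the gene. When all 85 probes were tested among 12834, 11 rose and 3 fell at P10 (17.5% of all probes passed), 3 rose and 3 fell at P15 (19.5%), and 0 rose and 14 fell with age (21.2%). Ndufs4, which encodes an accessory subunit needed for a stable complex I, had 4 probes. Its brightest differed by 0.05 at P10, while the other 3 rose by 0.47, 0.92 and 0.44 (limma adjusted p over probes 0.00476, 0.000896 and 0.00675). All 4 lay between -0.03 and 0.12 at P15.

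Ndufc1 was the reverse case, since the fall rested on 1 of its 2 probes. Its second probe, detected on 28 arrays, differed by 0.05 at P10 and -0.22 at P15, and passed at neither age. A second Ndufa5 probe, detected on 23 arrays, rose by 1.11 at P10 (SE 0.33, limma adjusted p over probes 0.0216), where the brightest gave -0.06. Second probes of Cox6a1, Ndufa8 and Uqcr10 and a further probe of Ndufv3 fell with age by 0.35, 0.35, 0.28 and 0.59 on the log2 scale, where the brightest probes differed by -0.26, -0.33, -0.17 and -0.42 without passing. Which transcripts each probe reads was not used here.

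**Figure D4:**
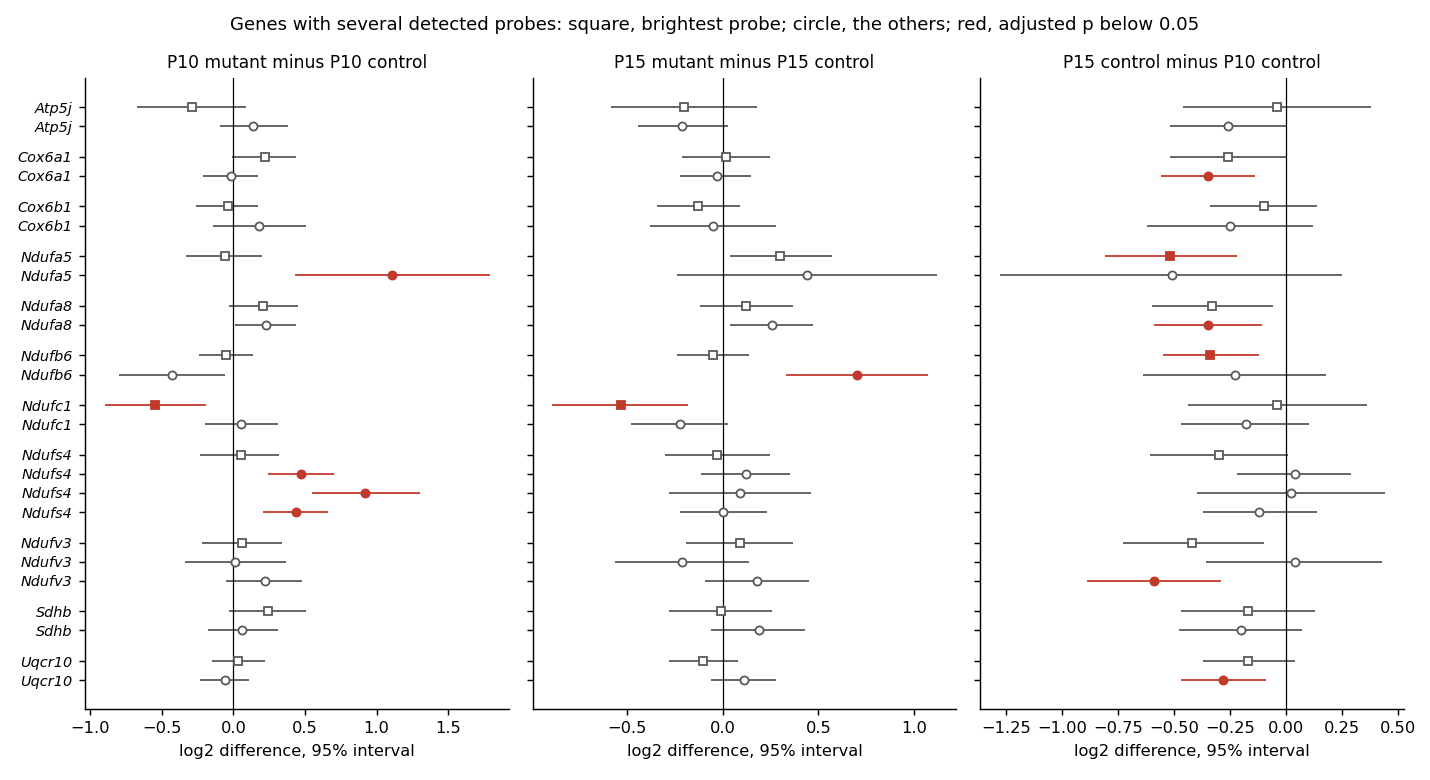
Log2 difference with 95% confidence interval of every detected probe of the 11 genes with more than 1, squares for the brightest probe and circles for the others, red where the adjusted p over all probes was below 0.05, in 3 panels for P10 mutant minus P10 control, P15 mutant minus P15 control and P15 control minus P10 control. For Ndufs4 at P10, 3 circles lie above 0 and the square at 0.05, and for Ndufc1 the squares lie below 0 at both ages and the circles closer to 0.

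Genes that build, feed or regulate the chain were counted from lists chosen by function. The shares to read them against are the 18.9% (P10), 20.0% (P15) and 22.2% (age) of all genes tested that passed. Of 35 assembly factors tested, 4 rose and 1 fell at P10, 2 rose and 1 fell at P15, and 0 rose and 2 fell with age, or 14.3%, 8.57% and 5.71%, each below the share of all genes. Cox14, which helps assemble complex IV, rose at both ages: it averaged 11.59 ± 0.05 in P10 mutants against 11.06 ± 0.14 in P10 controls (difference 0.53, limma adjusted p = 9.55e-05) and 11.65 ± 0.10 in P15 mutants against 11.33 ± 0.16 in P15 controls (difference 0.32, limma adjusted p = 0.00774; SD, n = 6 each). Timmdc1, an assembly factor of complex I, was lower at P10 (difference -0.73, limma adjusted p = 0.00241), with -1.18 on slide 1 and -0.27 on slide 2. Ecsit, which serves both complex I assembly and innate immune signalling, was higher at P15 by 0.57 (limma adjusted p = 0.0157). Sdhaf3 and Cox18, assembly factors of complexes II and IV, were lower with age, with differences of -0.61 and -0.36 (limma adjusted p = 0.00208 and 0.0452).

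Of 16 citric acid cycle genes 3 rose at P10, 2 rose at P15 and 2 fell with age, and none went the other way. That is 18.8%, 12.5% and 12.5% of the list, none above the share of all genes. Dld, the shared E3 subunit of the 2-oxo acid dehydrogenases, rose at P10 by 1.64 (SE 0.32, limma adjusted p = 0.000826), 2.62 on slide 1 and 0.66 on slide 2. Idh2, the mitochondrial NADP-linked isocitrate dehydrogenase, rose by 1.00 (SE 0.17, limma adjusted p = 0.000198), 1.53 and 0.47 on the same slides. Idh3g, a subunit of the NAD-linked enzyme, averaged 11.33 ± 0.15 in P15 mutants and 11.06 ± 0.14 in P15 controls (SD, n = 6 each; difference 0.28, limma adjusted p = 0.0215) and was lower with age by 0.39 (limma adjusted p = 0.00449).

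Among 13 genes of ubiquinone synthesis and electron carriers, 2 rose and 1 fell at P10, 0 passed at P15 (limma), and 1 rose with age, or 23.1%, 0% and 7.69%. Coq9 was higher in P10 mutants by 0.31 (limma adjusted p = 0.00973) and Coq10b lower by 0.49 (limma adjusted p = 0.00618). Of 7 carriers and porins 1 fell at P10, Slc25a20, the carnitine and acylcarnitine carrier (difference -0.34, limma adjusted p = 0.0348). Of 70 mitochondrial ribosome genes 6 rose and 1 fell at P10, 7 rose and 0 fell at P15, and 1 rose and 15 fell with age. That is 10.0%, 10.0% and 22.9% in either direction, below the share of all genes in both mutant comparisons. With age 21.4% fell, against 10.6% of all genes. The median of these 70 genes with age was -0.19. Mrpl3, of the large subunit, averaged 9.99 ± 0.30 in P15 mutants and 9.34 ± 0.20 in P15 controls (SD, n = 6 each; difference 0.65, limma adjusted p = 0.00069), and it was lower with age by 0.72 (limma adjusted p = 0.000826). Mrps6, of the small subunit, was higher at P10 by 0.67 (limma adjusted p = 0.000114).

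Of 10 biogenesis regulators 0 rose in any of the 3 comparisons. At P10, at P15 and with age 2, 1 and 1 fell, or 20.0%, 10.0% and 10.0%. Ppargc1a, which encodes PGC-1α, had log2 signals averaging 6.32 ± 0.12 in P10 mutants and 7.28 ± 0.36 in P10 controls (SD, n = 6 each), without overlap (difference -0.96, SE 0.20, limma adjusted p = 0.0012). Its difference was -1.01 on slide 1 and -0.91 on slide 2. At P15 the probe was detected on 0 of 6 mutants and 4 of 6 controls, so only a bound exists in mutants (limma adjusted p = 0.00363). With age it was lower by 1.19 in controls (SE 0.22, limma adjusted p = 0.000374), averaging 6.13 ± 0.29 in P15 controls (SD, n = 6) and 7.32 ± 0.19 in P10 controls (SD, n = 4). Gabpb1, which encodes a GABP subunit, was lower at P10 by 0.59 (SE 0.13, limma adjusted p = 0.00186).

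Of 14 glycolysis genes 5 rose and 1 fell at P10, 1 rose and 3 fell at P15, and 1 rose and 4 fell with age. That is 42.9%, 28.6% and 35.7% in either direction, against 18.9%, 20.0% and 22.2% of all genes. Eno3, the muscle enolase, rose at P10 by 1.73 (limma adjusted p = 0.0109). Pfkp, a phosphofructokinase, fell at both ages, by 0.94 at P10 (limma adjusted p = 0.00126) and 0.79 at P15 (limma adjusted p = 0.00439). At P15 Aldoa, an aldolase, averaged 11.28 ± 0.23 in mutants and 12.02 ± 0.12 in controls (SD, n = 6 each), while Pkm, the pyruvate kinase of most tissues, averaged 10.64 ± 0.26 in mutants and 9.89 ± 0.07 in controls. Neither pair of groups overlapped (limma adjusted p = 1.76e-05 and 0.000127). Ldha, a lactate dehydrogenase subunit, was lower with age by 0.41 (limma adjusted p = 0.00262).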

How the data were processed

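Total RNA of dorsal skin was labelled with biotin and hybridised to 28 Illumina BeadChip arrays, per the labels' protocols. The deposited table holds, per the file headers, a linear bead intensity and a detection p-value for 25697 probes on each array. The submitters' processing notes list GenomeStudio without a version. The authors' processed intensity values, deposited separately, served as an alternative.

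The deposited intensities were background-corrected with neqc in limma (normexp guided by detection p-values, with an offset of 16), then quantile-normalised and expressed as log2. For each gene the detected probe with the highest mean signal was kept, which gave 9045 genes. They were fitted with lmFit and eBayes (limma 3.58.1, R 4.3.3), with group and slide as terms and 21 residual degrees of freedom, over all 28 arrays. The threshold was a Benjamini-Hochberg adjusted p of 0.05 over all genes, two-sided, and adjusted p-values are limma's throughout. Symbols came from the platform annotation. The fits were tested on simulated data.

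The members and lists were chosen with earlier results of these data known. Named were, in each complex and comparison, up to 4 higher and 4 lower members past the threshold with the smallest p, or the member with the smallest p where none passed, all complex II genes, tissue isoforms, and up to 2 genes from each list. Ndufb4, Ndufb11, Ndufv1, Ndufs3, Ndufb8, Atp5b, Cox4i1, Atp5g1 and Atp5g3 were named after their values were seen. Marker levels are means of centred log2 signals. The number of arrays limits the precision. Alternatives covered scaling, background, the filter on dim probes, the slide term, single slides, array weights, covariates, a replicate block and the omission of each array.

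Same-numbered mutant and control arrays were checked as pairs: their residuals correlated between -0.2 and 0.4, and 1 of 12 mutants correlated best with the control of its own number, so the numbers were not taken as pairs.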

Additional observations from a re-analysis of the deposited data

Results flagged for a closer look

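Of 168 sets of values tested (named members, Gab1 and the complex levels in each group), 10 had 1 array far from the rest by Dixon's test at its 95% critical value, or 5.95%, and chance alone gives about 1 in 20, or 5%. P15 mutant 5 stood apart for 7 genes. Its log2 signal was 4.75 for Cox4i2 against 6.13 to 6.84 on the other P15 mutants, 10.87 for Ndufc1 against 11.96 to 12.41, 11.71 for Uqcrc2 against 12.34 to 12.62, and 12.56 for Ndufv2 against 11.93 to 12.15. It was 8.84 for Ndufb4 against 5.33 to 6.28, 12.88 for Ndufb8 against 12.29 to 12.49, and 13.73 for Atp5g3 against 14.05 to 14.24. It had the fewest detected probes of all arrays, 8836. Without it the Cox4i2 call held, and those of Ndufc1 and Ndufv2 at P15 ended.

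Cox7a1 was 9.43 on P10 control 7, against 7.73 to 8.39 on the other 9 P10 controls. The same array had the highest muscle marker level of the series, 2.27. Uqcrc2 was 12.39 on P15 control 6, against 12.58 to 12.70 on the other P15 controls, and Uqcrh was 12.96 on P15 control 1, against 12.68 to 12.78.

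A second, dimmer probe of Ndufb6, detected on 21 arrays, had a mutant effect that differed between the ages (P15 effect minus P10 effect 1.13, limma adjusted p over probes 0.0128). It differed by 0.70 at P15 (limma adjusted p over probes 0.00666) and by -0.43 at P10 (limma adjusted p over probes 0.102), while the brightest Ndufb6 probe gave -0.05 at both ages. The dimmer probe averaged 6.57 in P15 mutants, detected on 5 of 6, and 5.86 in P15 controls, detected on 1 of 6, so the P15 value is set against a group mostly at background. At P10 it was detected on all 6 arrays of both groups, with means of 7.15 in mutants and 7.58 in controls of slides 1 and 2.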

How the results depend on the processing

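The number of members past the threshold depended on the settings. With age nearly all calls given below were lower, while at P10 and P15 the balance of higher and lower calls changed as well. At P10, 7 members were higher and 3 lower. Without the slide term these were 11 and 5, on slide 1 alone 23 and 6, on slide 2 alone 1 and 1, with only the arrays of the comparison 12 and 5, with array quality weights 23 and 8, and at a threshold of 0.01 2 and 1. In these fits, up to the array weights, 22.5%, 40.8%, 2.82%, 23.9% and 43.7% of members passed, against 24.6%, 42.1%, 9.59%, 29.7% and 47.2% of all genes. All detected probes gave 11 higher, the adipocyte level as a covariate 2 higher, and slide as a random block 5 lower. At P15, 2 members were higher and 3 lower. The higher count was 1 under median scaling, array weights, the adipocyte covariate or a threshold of 0.01, and 0 without the slide term, on slide 3 or 4 alone or with only the arrays of the comparison. The lower count was 0 on slide 3 or 4 alone and 5 with the muscle level as a covariate. Under median scaling, array weights or the adipocyte covariate 4.23% of members passed, against 14.1%, 19.4% and 12.4% of all genes. Without the slide term or with only the arrays of the comparison 2.82% passed, against 14.0% and 11.7%. On slides 3 and 4 alone 0% passed, against 2.83% and 6.05%, and with the muscle covariate 9.86% against 21.5%. With age, 0 were higher and 11 lower. The lower count was 30 under median scaling, 20 without the slide term, 0 on slide 3 alone, 2 on slide 4 alone, 17 with array weights, 6 with the muscle covariate and 1 at a threshold of 0.01, and the muscle covariate gave 1 higher. That was Cox7a1, whose age difference turned to 0.59. In these fits, up to the muscle covariate, 42.3%, 28.2%, 0%, 2.82%, 23.9% and 9.86% of members passed in either direction. Of all genes 24.9%, 40.7%, 2.94%, 7.47%, 23.9% and 17.3% passed, and 22.6%, 18.8%, 1.34%, 4.21%, 11.2% and 7.96% were lower. For the difference between the ages, array weights gave 2 higher and 8 lower in place of 0 and 0 (with 16.4% of all genes called), and all detected probes gave 1 higher. The single-slide fits hold fewer arrays, and for the other settings the cause was not tested.

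Leaving out each array in turn gave 4 to 12 higher and 1 to 5 lower members at P10, 1 to 3 higher and 2 to 5 lower at P15, 0 higher and 4 to 16 lower with age, and 0 higher and 0 to 1 lower for the difference between the ages. Of 26 named calls 9 held without each single array and 17 were lost without at least 1. The replicate numbers did not pair the samples. With the replicate number as a block, 0 members were higher and 0 lower at P10. At P10 no mutant shared a slide with the control of its own number, so this fit cannot judge the P10 calls. In that fit 1 was higher and 3 were lower at P15 and 2 were lower with age, and 20 of the 26 named calls were lost. It called 0%, 5.63% and 2.82% of members at P10, at P15 and with age, against 0.0553%, 18.8% and 12.5% of all genes. Probes detected on few arrays of a group, such as those of Ndufb4, Sdhd and Cox4i2, lie near the background, which limits what their differences can show.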
